A study of Homo sapiens with 4 samples.

Results

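De novo lipogenesis, the building of fatty acids from acetyl-CoA in the cytosol, was followed through 10 genes of the 15221 measured: FASN, ACACA, ACACB, ACLY, ACSS2, ME1, ACSL1, ACSL3, ACSL4 and ACSL5. They were taken by name for their known roles, with earlier results of these data known. The values of their transcripts were summed per gene and library. Values were given for 4 of 5 listed transcripts of ACACA, 1 of 3 of ACSS2 and 2 of 5 of ACSL1. For ACSL3 they were given for 3 of 4, and for ACSL5 for 1 of 3. The remaining genes had values for all listed transcripts. Gene levels, shares and orders therefore cover only the transcripts with values. The data were 4 RNA-seq libraries of polyadenylated RNA. The 2 groups compared had 2 libraries each. PANC-1, a human pancreatic ductal adenocarcinoma line, was used untransduced. PZT-2 is a PANC-1 clone that carries short hairpin RNAs against the 3 isoforms of the histone variant H2A.Z, which come from the genes H2AFZ and H2AFV. Both were grown in DMEM with fetal bovine serum at the same passages. PZT-2 is 1 clone that had gone through lentiviral transduction with polybrene and selection with puromycin, which the untransduced cells had not, so that effects of the knockdown, of these steps and of the clone cannot be told apart in these libraries, and libraries of cells with a scrambled hairpin (PSCR) were not analysed here.

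In this pathway ATP citrate lyase (ACLY) cuts exported citrate into acetyl-CoA, and ACSS2 makes acetyl-CoA from acetate. Acetyl-CoA carboxylases (ACACA, ACACB) turn it into malonyl-CoA, and fatty acid synthase (FASN) joins the units into palmitate with NADPH, part of which comes from malic enzyme (ME1). The acyl-CoA synthetases (ACSL genes) then activate long-chain fatty acids, made or taken up, for use in membranes, droplets or oxidation. Carcinoma cells often run this pathway at a high rate.

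Library totals ranged from 12856547 to 15713625 counts, after a factor that the deposited tables carry for each library was undone. H2AFZ, the targeted gene of H2A.Z.1, held 6388 and 6032 normalized counts in PANC-1 and 2212 and 2257 in PZT-2. Its log2 fold change was -1.47 (adjusted p = 6.04e-05, edgeR's quasi-likelihood test). H2AFV held 3342 and 3451 against 2589 and 2716 (log2 fold change -0.36, adjusted p = 0.00561, edgeR). Levels are given in TPM, which scales the reads of a library to a fixed total and corrects for transcript length, and differences as log2 fold changes of normalized counts, PZT-2 over PANC-1. All 8 markers of ductal carcinoma cells had values, and their summed level was 7330.5 to 7370.3 TPM in PANC-1 and 3855 to 3934 TPM in PZT-2. Of the 8, KRT8, KRT18, KRT19, CDH1 and MUC1 were called lower (log2 fold changes -1.17, -0.81, -0.73, -3.78 and -0.51), SOX9 was called higher (0.25, adjusted p = 0.0372, edgeR), and KRT7 and EPCAM were not called. The sum is made mostly of KRT8, KRT18 and KRT19. Of the fibroblast markers 2 of 6 had values, summing to 10.7 and 11.6 TPM in PANC-1 and 3.94 and 3.14 TPM in PZT-2, and COL1A2, COL3A1, DCN and LUM had none. Nearly all of that sum is COL1A1, which was called lower (log2 fold change -1.75), while PDGFRB, at 0.191 to 0.331 TPM, had a value of 0.55 and was not called. The adipocyte and hepatocyte lists had 1 of 6 markers with values each, ADIPOQ at up to 0.204 TPM, not called, and SERPINA1 at 0.544 and 0.147 TPM in PANC-1 and 1.13 and 2.13 TPM in PZT-2, called higher (log2 fold change 2.30, adjusted p = 0.0343, edgeR). Of genes typical of myeloid cells, CD68 was at 114 to 122 TPM in all libraries and not called, and CD14 went from 0.278 and 0 TPM to 1.36 and 2.59 TPM and was called higher (adjusted p = 0.0232, edgeR). The part of these differences in the results below was not tested.

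Most of these genes were lower in PZT-2, and they differed in how far. FASN showed the largest called difference of the 10, followed by ACACA and ACSL3, while ACLY and ME1 were lower by less and ACSS2 showed no detectable difference. Of the 10 genes, 7 were called lower (FASN, ACACA, ACLY, ME1, ACSL1, ACSL3, ACSL4) and 0 higher at an adjusted p under 0.05. Among all 15101 genes tested, 13.7% were called lower and 14.7% higher, 28.4% in all. ACACB had a higher value at an unadjusted p under 0.05 (edgeR). DESeq2 called 6 lower and 0 higher, where 10.3% of all 15101 genes were called lower and 1666 genes higher. Read from the most abundant transcript of each gene alone, 3 were called lower (FASN, ACACA, ACSL3), where 6.68% of all genes were. For 8 of the 10 genes the higher PZT-2 value was under the lower PANC-1 value, as for 33.0% of all genes, and for 1 (ACACB) the groups were apart in the other direction, as for 33.3%. The median log2 fold change was -0.57 over the 10 genes and 0.00 over all genes tested. The smallest p that exact permutation of 2 against 2 libraries allows is 0.333 (two-sided), so the calls rest on the spread edgeR estimates over all genes. The study calls its replicates biological, and the labels do not say whether they were separate cultures, so the p-values measure the spread between these libraries. In bulk RNA, fewer cells that express a gene and less RNA per cell cannot be told apart.

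**Figure D1:**
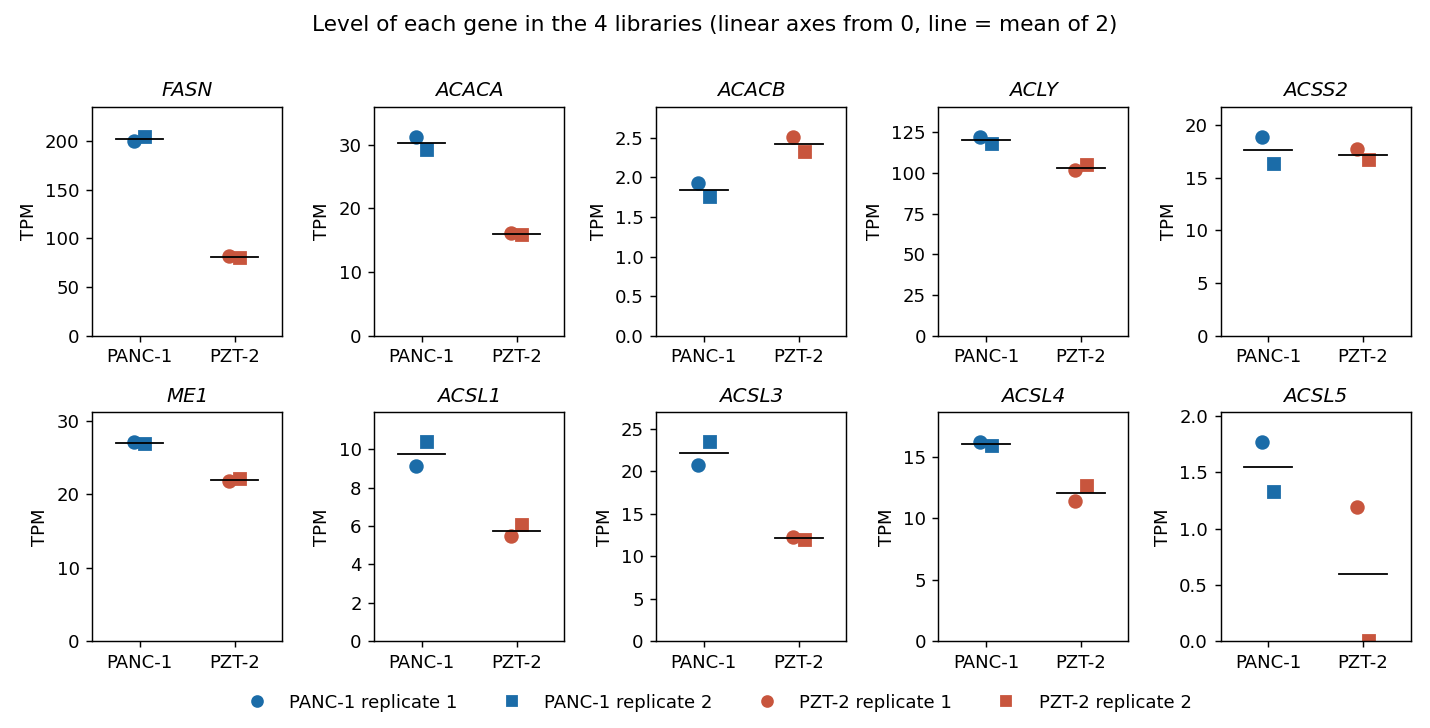
Level of each gene in TPM (linear axes from 0, a scale of its own for each gene) in the 4 libraries, with a black line at the mean of 2. The PZT-2 points lie below the PANC-1 points for 8 genes, above them for ACACB and among them for ACSS2.

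Of the genes of acetyl-CoA supply, ACLY had a higher RNA level than ACSS2. Its level was 122 and 118 TPM in PANC-1 and 102 and 105 TPM in PZT-2, so that the groups did not overlap. The log2 fold change was -0.20 with a standard error of 0.0544 and an adjusted p of 0.0350 in edgeR's quasi-likelihood test. The call was lost without PZT-2 replicate 1 (adjusted p = 0.216) and without PZT-2 replicate 2 (0.148). The gene has 4 listed transcripts, all with values, and no transcript was called. ACSS2, the acetate-using enzyme, stood at 18.9 and 16.3 TPM in PANC-1 and 17.7 and 16.7 TPM in PZT-2, with the PZT-2 values inside the PANC-1 range. Its log2 fold change was -0.02 with a 95% interval from -0.27 to 0.23 (adjusted p = 0.920, edgeR), and its sign turned when PANC-1 replicate 1 (0.09) or PZT-2 replicate 2 (0.02) was left out. The ratio of ACLY to ACSS2 in TPM was 6.47 and 7.21 in PANC-1 and 5.75 and 6.27 in PZT-2. ACLY stood above ACSS2 in all 4 libraries.

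The RNA of ME1, a gene of NADPH supply, was also lower by a small margin. ME1, which makes NADPH while turning malate into pyruvate, held 27.0 and 26.7 TPM in PANC-1 and 21.8 and 22.1 TPM in PZT-2. The replicates lay close together and the groups apart, and the log2 fold change was -0.28 with a standard error of 0.0695 (adjusted p = 0.0263, edgeR). DESeq2 gave an adjusted p of 0.101, and leaving out either PZT-2 library raised edgeR's adjusted p to 0.117 or 0.126.

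The 2 acetyl-CoA carboxylase genes had values in opposite directions. ACACA, the cytosolic enzyme that feeds synthesis, held 31.3 and 29.2 TPM in PANC-1 and 16.1 and 15.8 TPM in PZT-2. It was called lower, with a log2 fold change of -0.90, a standard error of 0.0640 and an adjusted p of 4.24e-04 (edgeR). ACACB, whose product at the mitochondrial surface restrains fatty acid import by CPT1, held 1.93 and 1.75 TPM in PANC-1 and 2.52 and 2.32 TPM in PZT-2. Its groups did not overlap, with PZT-2 the higher, and its log2 fold change was 0.41 with a 95% interval from 0.095 to 0.72, but the adjusted p of 0.0597 (edgeR) missed the threshold. ACACB rests on 1 transcript and on 129 to 187 normalized counts per library. The share of ACACB in the summed carboxylase TPM was 5.82% and 5.67% in PANC-1 and 13.5% and 12.8% in PZT-2. The ratio of ACACA to ACACB went from 16.2 and 16.6 to 6.39 and 6.81. The summed carboxylase level was 33.2 and 30.9 TPM in PANC-1 and 18.6 and 18.1 TPM in PZT-2.

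ACACA has 3 separate start sites in the RefSeq windows, which are shown here. The values of its transcripts differed in direction, although edgeR called none of them. Promoter windows of 250 bases before to 50 bases after a start came from RefSeq (build GRCh38.p14) for 9 of the 10 genes, FASN being the gene without an entry. GENCODE 29 pairs NM_198836 and NM_198839 with a start 20 bases from that of the second window, NM_198834 with a start 56 bases from that of the first window and NM_198838 with the start of the last window. Capitals mark every match on either strand of CCAAT, the core of sites bound by NF-Y, or of GGGCGG, the core of sites bound by Sp1, where matches of GGGCGG can overlap each other. Sequences run 5′ to 3′ on the strand of the gene.
ACACA first window, chr17:37406787-37407086, minus strand: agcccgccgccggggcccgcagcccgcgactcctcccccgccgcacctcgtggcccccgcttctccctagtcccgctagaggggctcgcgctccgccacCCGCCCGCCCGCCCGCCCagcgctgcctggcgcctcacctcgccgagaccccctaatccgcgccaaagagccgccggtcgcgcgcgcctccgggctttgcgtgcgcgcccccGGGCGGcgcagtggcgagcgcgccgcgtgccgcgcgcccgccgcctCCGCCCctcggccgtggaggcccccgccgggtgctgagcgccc
ACACA second window, chr17:37359047-37359346, minus strand: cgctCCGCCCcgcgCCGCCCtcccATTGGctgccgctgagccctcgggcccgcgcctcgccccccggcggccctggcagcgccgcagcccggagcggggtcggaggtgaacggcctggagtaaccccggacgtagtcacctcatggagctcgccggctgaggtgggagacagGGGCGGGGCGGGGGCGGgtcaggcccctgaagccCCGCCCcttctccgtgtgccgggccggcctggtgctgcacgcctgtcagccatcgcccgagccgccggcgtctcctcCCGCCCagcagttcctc
ACACA last window, chr17:37299718-37300017, minus strand: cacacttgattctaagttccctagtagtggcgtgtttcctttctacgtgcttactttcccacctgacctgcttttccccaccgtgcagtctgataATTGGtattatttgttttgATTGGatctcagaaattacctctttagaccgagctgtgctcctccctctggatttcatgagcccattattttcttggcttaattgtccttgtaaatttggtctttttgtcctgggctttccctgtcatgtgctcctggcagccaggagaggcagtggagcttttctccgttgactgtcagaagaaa
The first window holds 6 matches of GGGCGG and 0 of CCAAT, the second 7 and 1, and the last 0 and 2. Among all 35116 RefSeq windows of this length, 45.0% hold GGGCGG and 34.6% hold CCAAT. The motif CACGTG, a palindromic E-box found in 7.26% of all windows, and TCACNCCAC, a form of the sterol response element found in 1.13%, were searched on both strands too and are absent from all 3 windows. Their GC content was 82.3%, 77.3% and 45.3%.

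The transcript of the second start carried most of ACACA and most of its difference. NM_198836 made up 90.4% of the gene's normalized counts in PANC-1 and 80.4% in PZT-2. It held 2219 and 1994 normalized counts in PANC-1 against 949 and 1048 in PZT-2. The fitted log2 difference was -1.08 with a standard error of 0.0893. Its adjusted p over all transcripts was 0.0614 by edgeR, which missed the threshold. NM_198834, of the first start, held 90.0 and 82.6 normalized counts against 171 and 105, with PZT-2 the higher and no overlap (log2 fold change 0.68, adjusted p = 0.442, edgeR). NM_198839 shares its paired start with NM_198836 and held 64.1 and 106 against 124 and 74.9, so its libraries overlapped. NM_198838, of the start in the last window, held 30.4 and 69.9 against 14.1 and 0. For NM_198834 and NM_198839 the replicates of PZT-2 lay further apart than the group means. Kallisto divides reads that several transcripts share by an estimate, so minor transcripts of 1 gene are less certain than their sum.

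**Figure D2:**
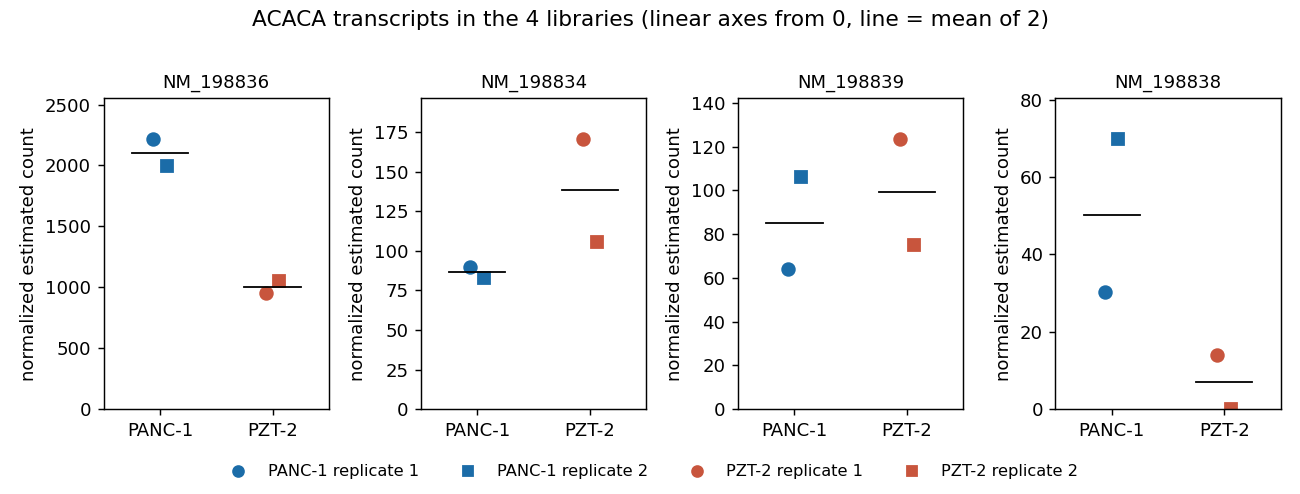
Normalized estimated counts of the 4 measured ACACA transcripts in each library (linear axes from 0, a scale of its own for each transcript), with a black line at the mean of 2. NM_198836 lies at 1994 and 2219 in PANC-1 and at 949 and 1048 in PZT-2, while NM_198834 is at 82.6 and 90.0 against 105 and 171.

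FASN, the enzyme that assembles palmitate, had the highest level of the 10 genes in PANC-1. It held 200 and 205 TPM in PANC-1 and 82.4 and 80.4 TPM in PZT-2, from 13542 and 13792 normalized counts against 5605 and 5486. The spread within each group was small beside the gap, with means of 203 ± 3.14 and 81.4 ± 1.40 TPM (SD, n = 2 each). The log2 fold change was -1.30 with a standard error of 0.0459 and an adjusted p of 5.80e-05 (edgeR), and it stayed between -1.32 and -1.29 when any 1 library was left out. FASN is read from 1 transcript, NM_004104, which was the only called transcript among the 22 of these genes (adjusted p = 0.0348, edgeR), and this call was lost when any 1 library was left out. At the transcript level edgeR called 0.0792% of all 30301 transcripts lower and 0.0693% higher, and 0 transcripts of these genes were called higher. An unadjusted p under 0.05 was reached by 6 of the 22 transcripts, against 18.5% of all transcripts, and DESeq2 called 6 lower, against 7.28% of all, and 0 higher. DESeq2 called more unchanged than changed transcripts in simulated data. Far fewer transcripts were changed there than DESeq2 called here, and the simulated spread was edgeR's estimate. That outcome therefore does not rank the tools for these libraries, and DESeq2's transcript calls are given only as an alternative.

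FASN stood above ACLY in PANC-1 and below it in PZT-2. The ratio of FASN to ACLY in TPM was 1.64 and 1.74 in PANC-1 and 0.809 and 0.767 in PZT-2. The ratio of FASN to ACACA changed less, from 6.41 and 7.02 to 5.12 and 5.09. FASN made up 44.5% and 45.8% of the summed TPM of the 10 genes in PANC-1 and 30.2% and 29.5% in PZT-2, where the sum itself went from 450 and 447 TPM to 273 and 273 TPM.

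The order of levels in PANC-1 was FASN, ACLY, ACACA, ME1, ACSL3, ACSS2, ACSL4, ACSL1, ACACB and ACSL5, and only the last pair overlapped between libraries. In PZT-2 the order was ACLY, FASN, ME1, ACSS2, ACACA, ACSL3, ACSL4, ACSL1, ACACB and ACSL5, and only ACSL3 and ACSL4 overlapped. ACACA thus stood above ME1 and ACSS2 in PANC-1 and below both in PZT-2.

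Of the genes of long-chain fatty acid activation, ACSL1, ACSL3 and ACSL4 were called lower and ACSL5 was not called. The summed level of ACSL1, ACSL3, ACSL4 and ACSL5 was 47.8 and 50.9 TPM in PANC-1 and 30.3 and 30.7 TPM in PZT-2. ACSL3, which sits on the endoplasmic reticulum and on lipid droplets, had the highest level of the 4 in PANC-1. It held 20.8 and 23.4 TPM in PANC-1 and 12.3 and 11.9 TPM in PZT-2 (log2 fold change -0.86, standard error 0.0825, adjusted p = 0.00105, edgeR). Its main transcripts NM_203372 and NM_004457 both had lower values, with log2 fold changes of -0.98 and -0.89, although neither was called (adjusted p = 0.116 and 0.0781, edgeR).

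ACSL1, an acyl-CoA synthetase with a broad range of long-chain substrates, held 9.11 and 10.4 TPM in PANC-1 and 5.45 and 6.08 TPM in PZT-2. It was called lower, with a log2 fold change of -0.75, a standard error of 0.122 and an adjusted p of 0.00617 (edgeR). Read from its main transcript NM_001995 alone, the log2 fold change was -0.73 and the adjusted p was 0.0595.

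The promoter windows of ACSL1 and ACSL3, both called lower, are shown for comparison with those of ACACA, with the same capitals.
ACSL1, chr4:184825919-184826218, minus strand: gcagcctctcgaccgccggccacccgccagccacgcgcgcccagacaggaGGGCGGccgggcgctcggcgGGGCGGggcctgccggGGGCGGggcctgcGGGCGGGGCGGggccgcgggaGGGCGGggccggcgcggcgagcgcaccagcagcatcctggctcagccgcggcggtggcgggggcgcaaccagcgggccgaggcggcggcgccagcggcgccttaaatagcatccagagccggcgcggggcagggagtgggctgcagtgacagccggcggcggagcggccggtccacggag
ACSL3, chr2:222860786-222861085, plus strand: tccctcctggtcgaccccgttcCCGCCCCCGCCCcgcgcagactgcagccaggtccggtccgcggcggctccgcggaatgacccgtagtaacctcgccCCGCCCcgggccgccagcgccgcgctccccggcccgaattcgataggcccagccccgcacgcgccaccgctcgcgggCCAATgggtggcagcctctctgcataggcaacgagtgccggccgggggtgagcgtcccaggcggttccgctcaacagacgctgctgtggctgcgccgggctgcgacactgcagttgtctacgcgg
The ACSL1 window holds 6 matches of GGGCGG and 0 of CCAAT. The ACSL3 window holds 3 matches of GGGCGG and 1 of CCAAT, which begins 75 bases before the start. Neither holds CACGTG or TCACNCCAC. Like the first and second ACACA windows, both lie in GC-rich sequence, with 82.3% and 74.0% G or C. The first ACACA window is paired with NM_198834, whose value was higher in PZT-2. ACACB and ACSS2, not called lower, each have a window with 3 matches of GGGCGG, at 67.0% and 64.3% G or C. The GENCODE start of the measured ACACB transcript lies 15282 bases from the start of that window. The other windows of ACACB and ACSS2, and those of ACSL5, have a lower G or C content. The windows of ACLY, ME1 and ACSL4, called lower, have 72.3% to 77.7%, and the further windows of ACSL1 have 48.0% to 60.3%. Whether G or C content goes with the calls was not tested. ACSL1 has 4 further windows in RefSeq, of which 1 holds TCACNCCAC, and it is paired through NM_001286710, a transcript with 0 to 23.6 normalized counts per library. The GENCODE start of NM_001286710 lies 235 bases from the start of that window, and the match begins 242 bases before the start of the window. Over all 19 windows of the 9 genes, this was the only match of TCACNCCAC, and CACGTG was found in 0.

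ACSL4, which prefers arachidonate and other polyunsaturated fatty acids, was lower by less. It held 16.2 and 15.8 TPM in PANC-1 and 11.4 and 12.6 TPM in PZT-2 (log2 fold change -0.40, standard error 0.0867, adjusted p = 0.0161, edgeR). ACSL4 lies on chromosome X, where the median log2 fold change of 471 tested genes was -0.29, and relative to that median it was -0.11. The call was lost without PZT-2 replicate 1 (log2 fold change -0.32, adjusted p = 0.0949). Its main transcript NM_001318510 held 380 and 401 normalized counts in PANC-1 against 307 and 400.3 in PZT-2, so its libraries overlapped. Its log2 fold change was -0.14 (adjusted p = 0.797, edgeR).

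ACSL5, a synthetase of the endoplasmic reticulum and mitochondria, was near the lower limit of detection. Its 1 measured transcript held 41 and 38 estimated counts in PANC-1 and 31 and 0 in PZT-2, or 1.77, 1.32, 1.19 and 0 TPM. PZT-2 replicate 1 lay close to PANC-1 replicate 2, and replicate 2 was listed at 0. A count of 0 allows up to 3 counts, which is 0.241% of the 1245 counts of the ACSL genes in that library, for counting error only. ACSL5 was not called (adjusted p = 0.372, edgeR). Without PZT-2 replicate 1 only the library at 0 is left in its group, and the adjusted p was 0.00725. The gene overlaps ZDHHC6 in the annotation.

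Within the ACSL family, ACSL3 had a smaller share in PZT-2 and ACSL4 a larger one. ACSL3 held 43.5% and 46.0% of the summed ACSL TPM in PANC-1 and 40.5% and 39.0% in PZT-2. ACSL4 held 33.8% and 31.1% in PANC-1 and 37.5% and 41.2% in PZT-2. ACSL1 held 19.0% and 20.3% in PANC-1 and 18.0% and 19.8% in PZT-2, where the groups overlapped. The ratio of ACSL3 to ACSL4 was 1.29 and 1.48 in PANC-1 and 1.08 and 0.945 in PZT-2. Counts in place of TPM move the shares themselves, as a longer gene takes more counts at the same TPM.

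**Figure D3:**
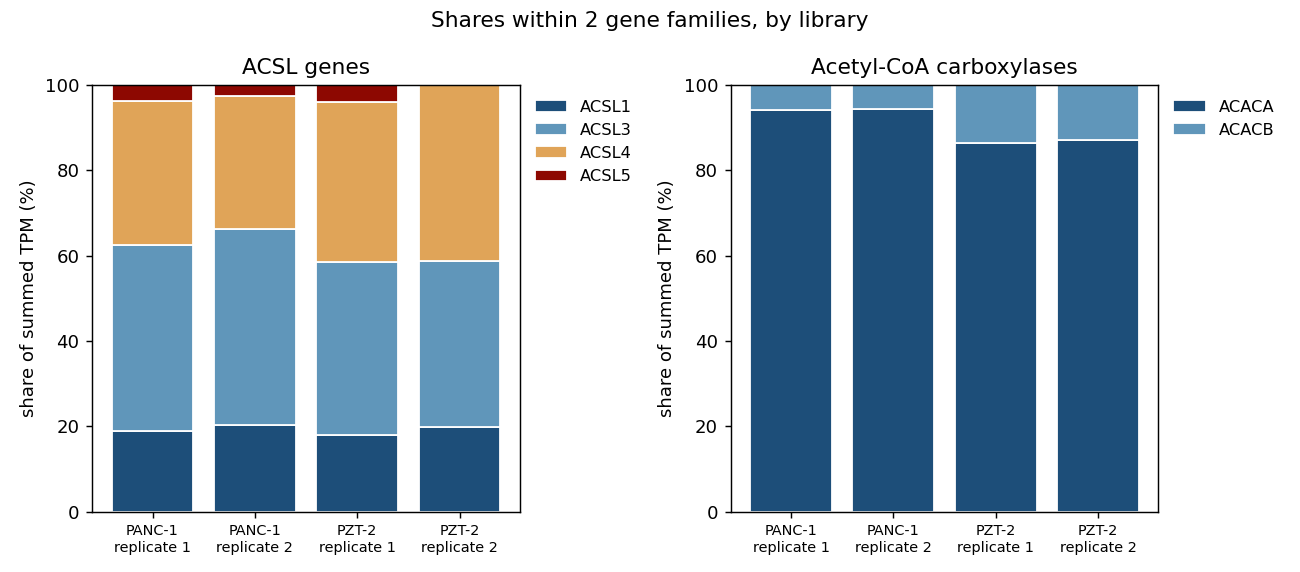
Share of the summed TPM (percent, bars from 0 to 100) of each gene of the ACSL family on the left and of ACACA and ACACB on the right, in each of the 4 libraries. ACACB takes 5.67% to 5.82% in PANC-1 and 12.8% to 13.5% in PZT-2.

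**Figure D4:**
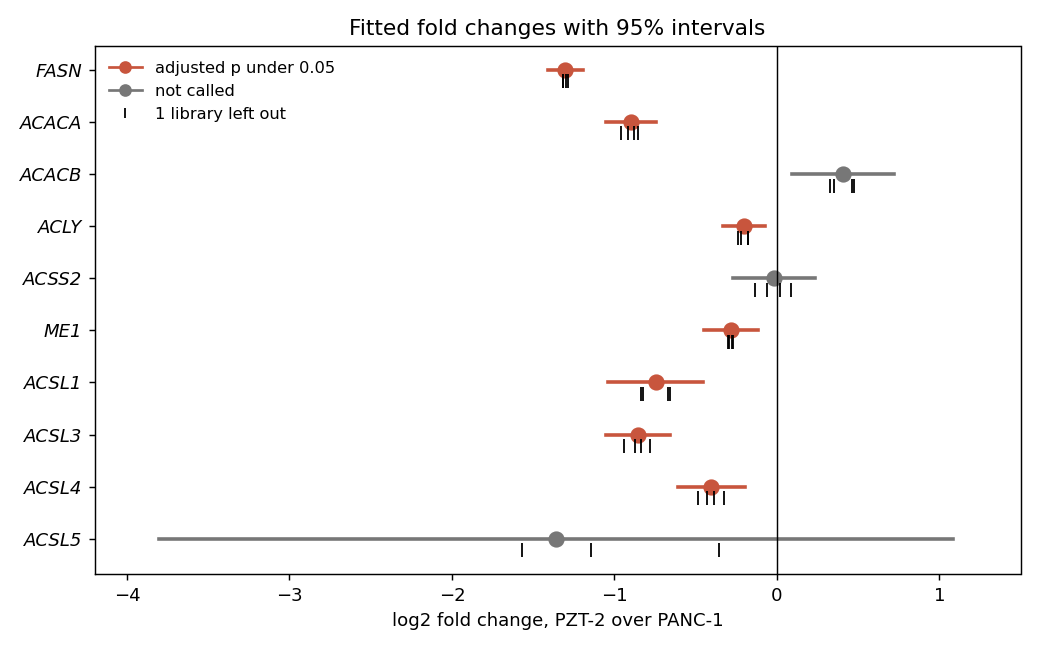
Log2 fold change of PZT-2 over PANC-1 for the 10 genes (point) with its 95% interval (bar) from edgeR, and the values with each library left out (ticks). FASN sits at -1.30, ACACA at -0.90 and ACSL3 at -0.86, the interval of ACSS2 spans 0, and 1 left-out value of ACSL5, at -8.33, lies beyond the axis.

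The genes whose pattern over the 4 libraries was most like that of FASN were LSS, COL5A2, SQLE, KRT8 and LAMB1. Likeness was the Euclidean distance of centred log2 CPM (counts scaled to a fixed library total), among the 3223 genes with a mean of at least 1000 normalized counts. The distances were 0.0733, 0.132, 0.136, 0.138 and 0.152, and the log2 fold changes -1.33, -1.18, -1.33, -1.17 and -1.16. LSS (lanosterol synthase) and SQLE (squalene epoxidase) are enzymes of sterol synthesis, COL5A2 and LAMB1 encode matrix proteins and KRT8 a keratin. With 4 libraries in 2 groups, this distance mostly reads the group difference.

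Around the 10 genes, 143 further genes of fatty acid metabolism were listed in 9 groups, of which 125 had values and were tested. Of these, 33 (26.4%) were called lower and 22 (17.6%) higher, against 13.7% and 14.7% of all genes, with a median log2 fold change of -0.11. Without PZT-2 replicate 1 the lower calls came to 21, and without PZT-2 replicate 2 there were 20 lower and 13 higher.

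The regulators of lipogenic transcription included genes with larger differences than FASN. Of 16 tested, 7 (43.8%) were called lower and 1 (6.25%) higher, against 13.7% and 14.7% of all genes, with a median log2 fold change of -0.18. INSIG1, which holds SREBP in the endoplasmic reticulum, went from 1532 and 1572 normalized counts to 252 and 274 (log2 fold change -2.56, adjusted p = 4.92e-05, edgeR). SREBF1, the gene of the SREBP that drives fatty acid synthesis, held 3152 and 2287 in PANC-1 and 731 and 675 in PZT-2 (log2 fold change -1.95). SREBF2, whose product drives sterol genes, had a log2 fold change of -1.54. The groups did not overlap for these 3 genes, as for 33.0% of all genes with PZT-2 the lower. As the 3 were named for their large called differences, this adds no support.

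Desaturation and elongation, the steps that follow FASN, held the widest range of the 9 lists. Of 17 tested genes 7 (41.2%) were called lower and 3 (17.6%) higher, against 13.7% and 14.7% of all genes, with a median of -0.41. SCD, which makes oleate and palmitoleate, went from 21135 and 15712 normalized counts to 715 and 668 (log2 fold change -4.74). The desaturases FADS2 and FADS1 had log2 fold changes of -3.80 and -1.50. The ratio of FASN to SCD in TPM was 0.409 and 0.561 in PANC-1 and 5.01 and 5.24 in PZT-2.

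Citrate and NADPH supply around ACLY and ME1 had 7 genes called lower and 2 higher of 13 tested, with a median of -0.23. These are 53.8% and 15.4%, against 13.7% and 14.7% of all genes. IDH1, a cytosolic source of NADPH, had a log2 fold change of -0.80 and the citrate carrier SLC25A1 one of -0.69. The glucose transporter SLC2A1 was called higher, at 0.71. The list of acetyl-CoA carboxylase control had 2 lower and 2 higher of 11 (18.2% each), near the shares of all genes. PRKAB2 (a subunit of AMP-activated kinase) was at 0.97, the kinase CAMKK2 at 0.45 and STK11 at -0.36.

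Of 18 other acyl-CoA synthetases listed, 9 had values, 1 was called lower and 2 higher, with a median of -0.03. These calls are 11.1% and 22.2% of the 9, against 13.7% and 14.7% of all genes. ACSL6, the remaining ACSL gene, held 0 to 11.9 normalized counts and was not called (log2 fold change -0.32, adjusted p = 0.863, edgeR). ACSF2 went from 66.4 and 61.5 normalized counts to 201 and 184 (log2 fold change 1.59, adjusted p = 8.75e-04, edgeR). SLC27A1, a transport protein with acyl-CoA synthetase activity, had a log2 fold change of 1.31. ACSS1, the mitochondrial relative of ACSS2, had one of -0.41.

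Beside the same shares of all genes, 13.7% lower and 14.7% higher, the remaining lists had the following calls. Glycerolipid assembly and droplets had 5 lower and 5 higher of 21 (23.8% each), where the droplet coat gene PLIN2 was higher (1.29) and the lysophospholipid acyltransferases LPCAT3 and LPCAT2 were lower (-1.05 and -1.03). Mitochondrial fatty acid oxidation had 1 lower and 5 higher of 19 (5.26% and 26.3%), with DECR1 at -0.95, CPT1B at 0.92 and the carnitine carrier SLC25A20 at 0.70. Mitochondrial fatty acid synthesis had 1 lower, MECR at -0.30, and 1 higher of 8 (12.5% each). Acyl-CoA thioesterases and binding proteins had 2 lower, DBI at -0.62 and ACOT2 at -0.52, and 1 higher, ACOT7 at 0.31, of 11 (18.2% and 9.09%). Medians of these 4 lists lay between -0.14 and 0.03.

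**Figure D5:**
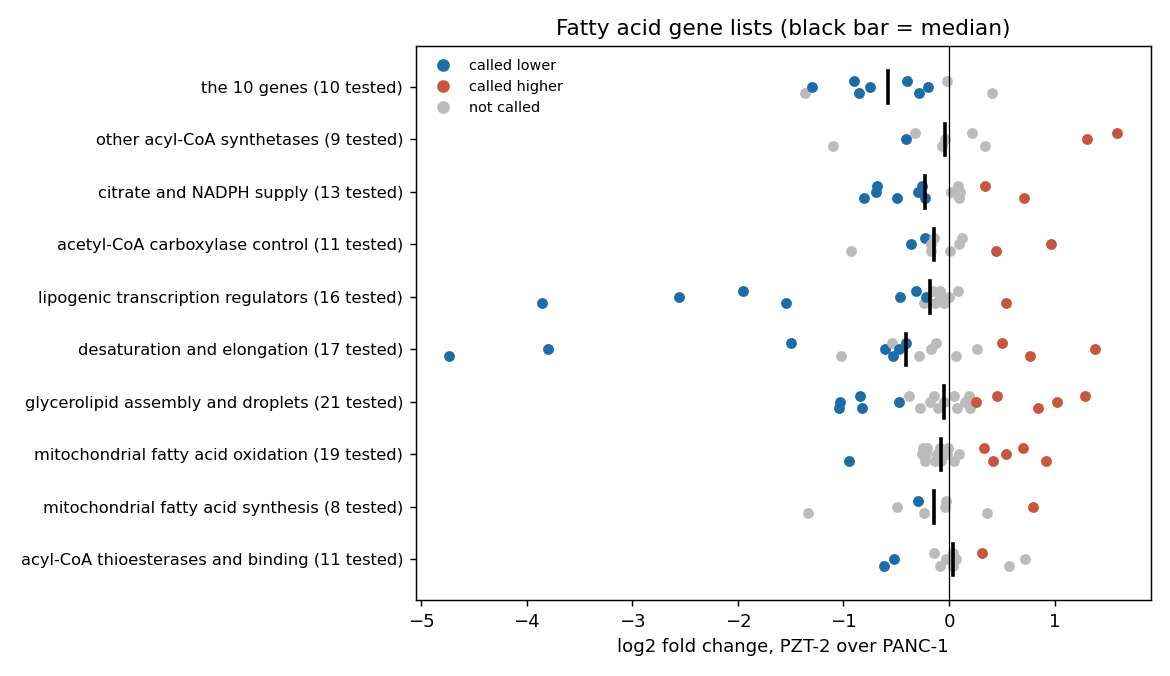
Log2 fold change of PZT-2 over PANC-1 of every tested gene in the 10 genes and 9 lists of fatty acid metabolism, coloured by call, with a black bar at the median of each list. The median is -0.57 for the 10 genes and between -0.41 and 0.03 for the other lists.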

How the data were processed

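RNA was measured in 2 PANC-1 and 2 PZT-2 libraries, made with a stranded kit for polyadenylated RNA and sequenced as read pairs. The authors trimmed reads with Trim Galore 0.4.1 and estimated transcript abundance with kallisto 0.43.0 on RefSeq transcripts, and their processing notes also name hg19. The deposited table gives an estimated count and a TPM per transcript and library. A second table holds the authors' sleuth 0.29.0 fold changes and p-values for PZT-2 against PANC-1, of which only the gene names were used.

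The deposited counts carry 1 factor per library, which was found as the factor that made most low values whole (tolerance 0.01, values from 0.5 to 30), with 41.4% to 42.8% whole after it was undone, against 0.915% to 2.39% before. Counts were then rounded and summed per gene. Names came from the table for 27049 of 31077 transcripts and by accession for 3925. Genes that reached 5 counts in 2 or more libraries were tested with edgeR 4.0.16 (TMM scaling, quasi-likelihood test, Benjamini-Hochberg over all genes, R 4.3.3). The tests were tested on simulated data: at the gene level edgeR called most of the genes that were made to change, while at the transcript level it missed most of them and DESeq2 called more unchanged than changed transcripts. Few genes or transcripts were changed in those data, with a spread estimated by edgeR, so the outcome does not rank the tools for these libraries. Alternatives were RLE scaling, DESeq2 1.42.0, limma 3.58.1 on log2(TPM + 1) and log2(TPM + 0.1), other filters, counts scaled by length, a replicate block and each library left out. Libraries held 12856547 to 15713625 counts, and limits from a count of 0 cover counting error only.

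The 10 genes and the gene lists were chosen with earlier results of these data known. Named genes were the 10, the targets, up to 3 called genes per list with the largest change and a mean of at least 100 normalized counts, and the 5 genes nearest to FASN. Antisense or overlapping genes, such as ACSL3-AS1 at ACSL3, are annotated at 8 of the 10 genes, and whether the authors' counting used strand is not given in the sources used here. The summed leukocyte marker list is not reported here.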

Additional observations from a re-analysis of the deposited data

How the results depend on the processing

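Of the 149 values of the 10 genes under the 15 alternatives, 147 kept their sign, and the exceptions are both of ACSS2, whose values with 1 library left out ran from -0.14 to 0.0867 (without PANC-1 replicate 1) and include 0.02 without PZT-2 replicate 2. The count of the 10 genes called lower was 7 in the main analysis, 6 with DESeq2, and 5 with the replicate block or with either PZT-2 library left out (without PZT-2 replicate 1, ACSL5 is among the 5), and 3 from the most abundant transcript of each gene alone. FASN, ACACA and ACSL3, those 3, were called under every alternative that gives a test. With the replicate block, ACLY (adjusted p = 0.0647) and ME1 (0.0522) lost their calls and no other of the 10 genes did. Over all genes, 10.3% were called lower with DESeq2, 11.7% with the replicate block and 6.68% from the most abundant transcript alone. The libraries share only a replicate number (correlation of deviations -0.02). Without a PZT-2 library the calls over all genes fell too, from 13.7% lower to 7.86% or 6.27%, and the pathway lists, with 33 lower and 22 higher, had 20 to 39 lower and 13 to 22 higher with 1 library left out, the lowest counts being without PZT-2 replicate 2 (20 and 13) and 21 lower without PZT-2 replicate 1. The count of the 22 transcripts called lower was 1, and it was 6 with DESeq2, 3 with at least 10 counts in all libraries, 0 with the replicate block and 0 with any library left out. The cause was not tested. Shares by count in place of TPM were 15.0% and 14.4% for ACSL1, 50.1% and 44.6% for ACSL3 and 5.53% and 12.6% for ACACB (PANC-1 and PZT-2), and 2.07% for ACSL5 in PANC-1. Relative to the median of its chromosome, the log2 fold change of ACSL3 moved from -0.86 to -0.98. That of ME1 moved from -0.28 to -0.26 and that of ACSL4 from -0.40 to -0.11. Counts were lowest for ACSL5, with at most 41 in a library, and ACACB, with at most 187 normalized counts.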
